A study of Mus musculus with 4 samples.

Results

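The genes described here are mouse zinc finger genes with a Zfp symbol whose mRNA carried an m6A peak in c-Kit+ foetal liver cells. They were chosen by the peaks themselves. Protein-coding genes of GENCODE M21 named Zfp followed by digits only were taken, leaving out Zfp36, and a gene was kept when the summit of a peak lay in one of its exons in both peak lists. This held for 267 of 364 such genes, 73.4% (exact 95% interval 68.5 to 77.8, counting error only), beside 30.9% of all 21951 protein-coding genes (6780 genes). A further 9 Zfp genes had a summit in replicate 1 only, 12 in replicate 2 only, and 76 in neither list. Since the peaks chose the genes, these counts and the enrichment values below are a description, and no test was made on them.

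The series held 4 samples of m6A meRIP-seq, in which fragmented RNA is captured with an antibody to N6-methyladenosine and sequenced beside uncaptured RNA. There were 2 immunoprecipitation (IP) replicates and 2 input replicates, all from C57BL/6 foetal liver cells enriched with magnetic beads for Kit, the stem cell factor receptor. The study's methods give the cells as Ythdf2 CTL, the control genotype for a conditional deletion of the m6A reader Ythdf2, and the replicates as biological. The labels give total RNA for the IP samples and polyA RNA for the inputs. There was no second condition, so values are compared between replicates and between sets of genes. Of the marker lists, 3 of 7 progenitor genes (Cd34, Gata2 and Runx1) had a summit in both lists, as had 3 of 5 erythroid genes, 1 of 4 macrophage genes (Csf1r) and 2 of 5 hepatocyte genes (Apoa1 and Hnf4a). Kit itself had no summit in either list. A peak list does not measure how much of an mRNA is present, so these counts neither show nor deny a cell type.

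C2H2 zinc finger proteins form the largest family of mammalian transcription factors. Each finger is a short fold held by a zinc ion between a pair of cysteines and a pair of histidines, and fingers follow each other in tandem, joined by a conserved linker (TGEKP), so that neighbouring fingers read neighbouring bases of DNA. Many of these proteins start with a KRAB domain, which recruits the corepressor Trim28 and the histone methyltransferase Setdb1, and many silence transposable elements. The finger array is usually encoded by a single long last exon. m6A is written by the Mettl3-Mettl14 complex within the consensus DRACH (any base but C, a purine, A, C, then any base but G), of which GGAC is the classical core, and is typically concentrated near stop codons and in long exons. Ythdf2 binds m6A and promotes decay of the mRNA.

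The first sequence below is the stretch of Zfp709 under the peak that had the highest mean fold enrichment of all peaks lying inside a finger array in both replicates, and was chosen because it shows finger repeats and motifs together. It is 168 nt of coding sequence in exon 4 of 4, on the plus strand of GRCm38 at chr8:71890241-71890408. The summits lay at base 95 of the printed stretch in replicate 1 and base 82 in replicate 2. Capitals mark 2 GGAC sites and 1 copy of AAACC, the DRACH match that the linker codons often spell. The other sequences hold a GGAC site within 50 nt of the summit of lowest q in both replicates, in Zfp827 (3′ UTR, plus strand, chr8:79190445-79190473), Zfp324 (3′ UTR, plus strand, chr7:12971826-12971854), Zfp746 (3′ UTR, minus strand, chr6:48063815-48063843) and Zfp592 (coding, plus strand, chr7:81025235-81025295), with GGAC and its following base in capitals. All are written 5′ to 3′ on the mRNA sense strand.
Zfp709: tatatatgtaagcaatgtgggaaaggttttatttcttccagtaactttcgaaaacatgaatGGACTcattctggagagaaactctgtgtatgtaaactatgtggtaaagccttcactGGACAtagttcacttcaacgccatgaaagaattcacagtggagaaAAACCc
Zfp827: cttgcctatcttGGACTaagagaaagagc
Zfp324: tggagtaggcagGGACTgaccccggaact
Zfp746: ggagacctgtaaGGACCccaatcctcctg
Zfp592: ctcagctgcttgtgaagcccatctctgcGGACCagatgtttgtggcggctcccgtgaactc

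The proteins of the 267 genes had a median of 585 residues and 11 matches to the C2H2 finger pattern, with a range of 0 to 36. The pattern had no match in 5 of them (Zfp503, Zfp703, Zfp781, Zfp839 and Zfp935). A KRAB A-box pattern matched 104 of the 267. It misses some KRAB domains, among them those of Zfp445 and Zfp568, both known KRAB proteins. Of the 76 Zfp genes without a summit, 25 matched it. The array lay wholly in the last exon in 212 of the 262 members with a finger. The median last exon was 2649 nt in the members and 1549 nt in the other 6513 methylated genes, while the median transcript was similar, 3380 and 3337 nt. Zfp genes without a summit had a median transcript of 2828 nt and a median of 9 fingers. The peak lists do not give expression, so how far transcript abundance separates the 267 from the 76 was not tested.

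The members lay on 19 autosomes and X, with 69 of 88 Zfp genes methylated on chromosome 7, 33 of 41 on chromosome 17 and 28 of 31 on chromosome 13. The share was lower on chromosome 4 (13 of 30) and chromosome 2 (11 of 25). Of the 208 Zfp genes within 100 kb of another one, 162 were methylated (77.9%, interval 71.6 to 83.3), and of the 156 others 105 were (67.3%, interval 59.3 to 74.6). Members of the same cluster can share near-identical sequence. A 101-nt window centred on the summit had a copy elsewhere in the genome, at 98% identity or more over 90% of its length, for 44 of 551 member summits in replicate 1 and 45 of 549 in replicate 2. In 20 members all summits of at least 1 list were of this kind, among them Zfp114, Zfp433, Zfp932 and Zfp987, and their calls are uncertain because reads could come from the copy. In a further group of 7 (Zfp459, Zfp524, Zfp593, Zfp708, Zfp82, Zfp90 and Zfp935, of which Zfp82 is in both groups), the summits of at least 1 list also lay in an exon of another gene, and the lists carry no strand.

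The 267 genes held 551 summits in replicate 1 and 549 in replicate 2, or 2.06 per gene in each. At least 2 peaks were present in 169 genes (63.3%) in replicate 1 and 167 (62.5%) in replicate 2, beside 43.2% and 42.1% of the other methylated genes. At least 3 were present in 69 and 70 members (25.8% and 26.2%, beside 14.5% and 13.7%). The number of peaks was the same in both lists for 147 members. Adjoining peaks are joined in one list and apart in the other in several genes, such as Zfp292 and Zfp318, so the number of peaks is less steady than their place.

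**Figure D1:**
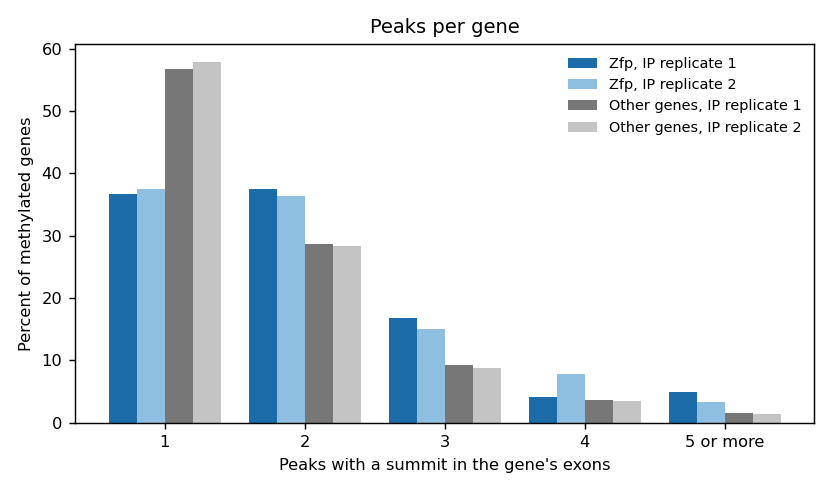
Percent of methylated genes (y axis) by number of peaks with a summit in their exons (x axis), for the 267 Zfp genes and the other 6513 methylated genes in each IP replicate. Single-peak genes were 36.7% and 37.5% of the Zfp genes and 56.8% and 57.9% of the other genes.

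The members with the most peaks encode long proteins. Zfp407 held 8 peaks in each list, spread along the coding sequence. Fold enrichment of its peaks spanned 3.25 to 10.4 (replicate 1) and 2.97 to 8.81 (replicate 2). The highest in both was the coding peak 5658 and 5671 nt into the coding sequence. Zfp292 held 7 and 5 peaks, all in the coding part of exon 8 of 8, and its strongest summits, at 9.14-fold and 8.47-fold, fell 1 nt apart. Zfp318, which controls the switch from IgM to IgD expression in B cells, held 7 and 5 peaks. Its strongest values were 9.44 and 6.31, in exon 4 of 10. Zfp608 held 6 and 6 and its paralogue Zfp609, a partner of the cohesin loader, 6 and 6. The 6 summits of Zfp609 recurred in both lists within 14 nt of each other, at 3.12-fold to 4.48-fold in replicate 1 and 2.94-fold to 4.71-fold in replicate 2. The window at its start codon has a near-identical copy elsewhere in the genome, so that peak is uncertain. Zfp646 held 5 and 6 peaks, and its summit 2237 nt into the coding sequence fell on the same base in both lists.

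**Figure D2:**
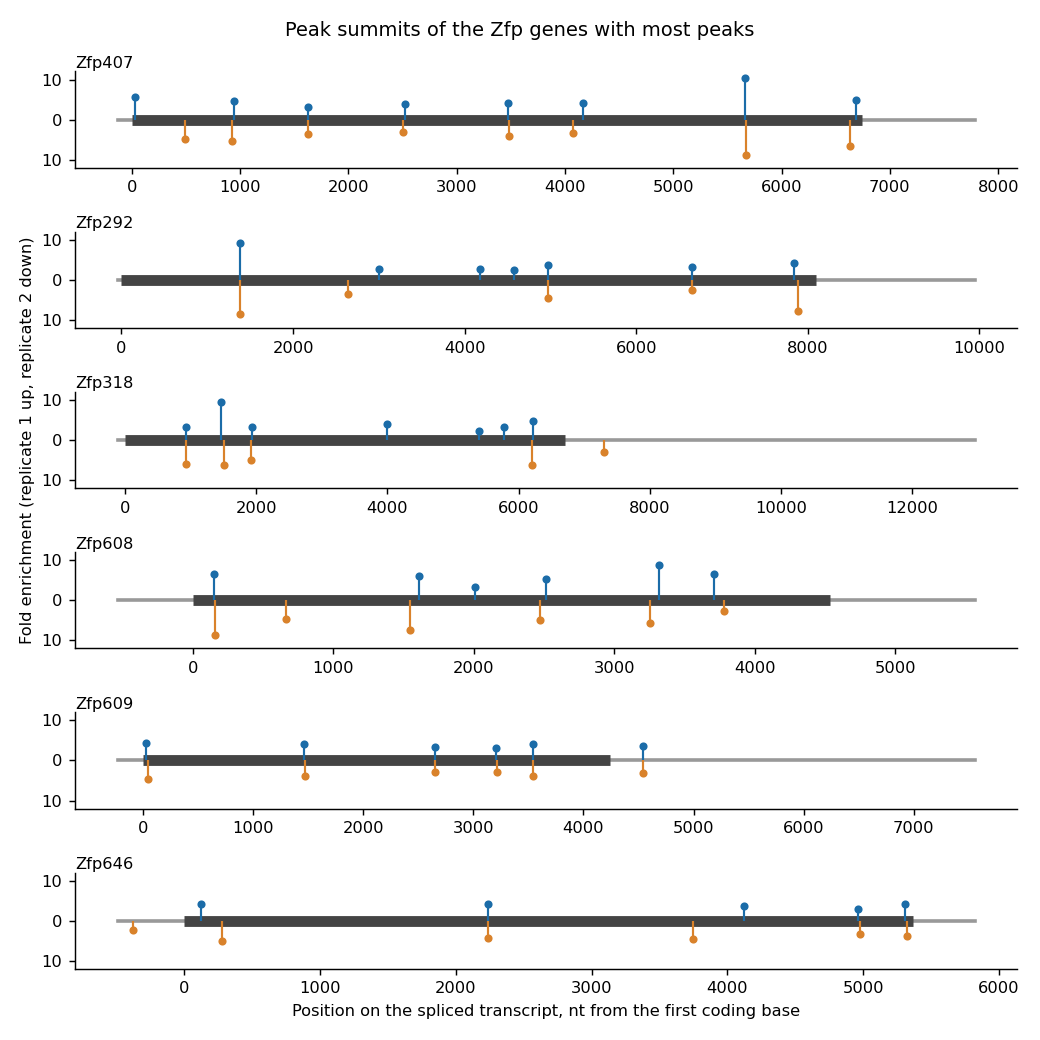
Summits of the 6 Zfp genes with most peaks on the spliced transcript (x axis, nt from the first coding base; thick bar, coding sequence; thin bar, UTRs), with fold enrichment (y axis) of IP replicate 1 drawn upward and of replicate 2 downward. Zfp407 had 8 summits in each list, and the 6 of Zfp609 recurred in both.

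Median fold enrichment (IP signal over local background at the summit) of the member peaks was 5.04 in replicate 1 and 5.15 in replicate 2, and 4.06 and 4.21 for the peaks of the other methylated genes. The quartiles of the member peaks were 3.78 and 6.67 in replicate 1, and 3.92 and 7.16 in replicate 2. The reads behind these ratios differed too. The median member peak rested on 50 IP reads in each replicate, over a background of 10 and 8 control reads. Peaks of the other methylated genes had medians of 74 and 73 IP reads, and their background equalled 19.4 and 15 control reads. The background was below 2 control reads for 7.44% and 9.65% of member peaks, and for 6.01% and 8.91% of the others. The median background was lower in the members, and its part in the difference in fold enrichment was not tested. Zbtb genes, which pair C2H2 fingers with a BTB domain and of which 35 of 40 were methylated, had medians of 4.62 and 5.26. They held 2.29 and 2.14 peaks per gene, beside 2.06 in the members in each replicate.

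Of the member peaks, 520 of 551 in replicate 1 (94.4%) and 486 of 549 in replicate 2 (88.5%) overlapped a peak of the other list. A total of 386 one-to-one pairs of overlapping peaks could be formed, in 231 genes. Their summits lay a median of 23.5 nt apart, beside 15 nt in the 9039 pairs of other genes. Overlap alone made a pair, also where the summits lay far apart. The distance was 817 nt in a pair of Zfp521, 1203 nt in Zfp846 and 1530 nt in Zfp281. Such pairs are kept in the values that follow. The log2 ratio of replicate 1 to replicate 2 had a mean of -0.06 and an SD of 0.48 over the pairs, and 94.6% of pairs were within 2-fold. Across pairs Spearman's rho of fold enrichment was 0.68 (0.83 in the other genes). Peaks of 1 library share its depth, and this is a description.

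**Figure D3:**
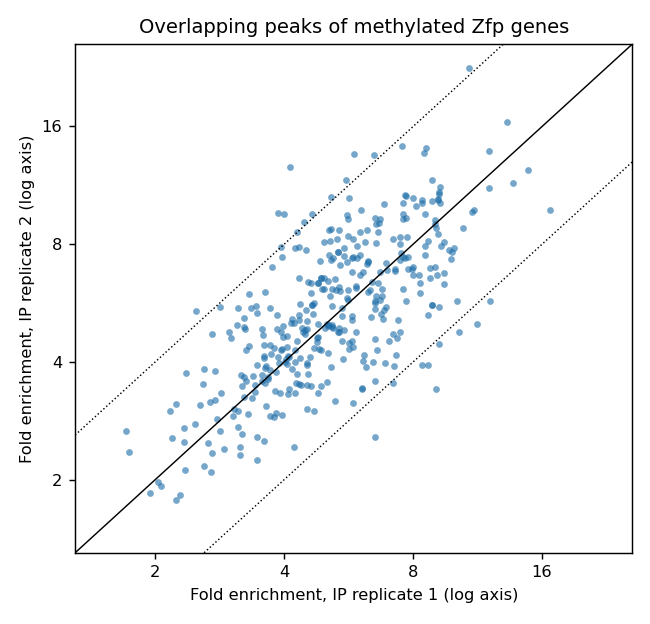
Fold enrichment of the 386 pairs of overlapping member peaks in IP replicate 1 (x axis) and IP replicate 2 (y axis), both on log axes. The solid line marks equal values and the dotted lines a 2-fold difference, within which 94.6% of pairs lie.

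The strongest members by mean log2 fold enrichment of the peak of lowest q were Zfp827, Zfp712, Zfp709, Zfp316, Zfp677, Zfp52, Zfp760, Zfp286, Zfp865 and Zfp324. Of these 10, all but Zfp827 and Zfp865 matched the KRAB pattern, beside 104 of all 267 members (39.0%). Peaks of KRAB members also had less background, as given below, and its part in this ranking was not tested. Zfp827, which brings the NuRD complex to telomeres, had 10.8-fold in replicate 1 and 22.6-fold in replicate 2 in its 3′ UTR. IP reads at those summits numbered 38 and 36, with a background of 3 and 0.56 control reads, so the replicates differed in background and hardly in IP reads. Zfp712 had 13.2-fold and 16.5-fold in its 3′ UTR, on 33 and 37 IP reads. Zfp709 had 14.8-fold and 12.4-fold, on 50 and 64 IP reads, inside its array of 18 fingers. Zfp316, with 12-fold and 13.8-fold on 32 and 28 IP reads, also carried its peak in the array. Zfp760 had 12-fold and 11.1-fold on more reads, 74 and 69, upstream of its array. Zfp677 had 16.7-fold and 9.79-fold. Zfp324 had 8.58-fold and 14.1-fold on 90 and 88 IP reads, its summits falling 16 nt apart on either side of the border between the stop codon window and the 3′ UTR. In Zfp286 and Zfp865 the peaks of lowest q lay at different places in the 2 lists. Background was also low in Zfp712 (1.8 and 1.2 control reads), Zfp316 (2.0 and 1.0), Zfp677 (1.6 and 2.6) and Zfp286 (1.2 and 1.0). It was 2.8 and 4.0 in Zfp709, 6.0 and 4.0 in Zfp52, and 6.0 and 5.0 in Zfp760. Zfp865 had 4.0 and 9.0, and Zfp324 11.0 and 5.0.

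The replicates differed most in Zfp346, Zfp711, Zfp846, Zfp593, Zfp788 and Zfp459. In Zfp346, an RNA-binding zinc finger protein, the peak of lowest q had 15.1-fold in replicate 1 at the start codon and 3.36-fold in replicate 2 at the stop codon, so different peaks were compared. Its stop codon peak was in both lists, at 3.41-fold and 3.36-fold. Zfp593 likewise had its stop codon peak in both lists, at 1.74-fold and 2.35-fold, and a start codon peak in replicate 2 only. Zfp711, an X-linked gene of intellectual disability, had its highest value, 15.2-fold on 34 IP reads, at a coding site called in replicate 2 only, while the site called in both lists had 4.79-fold and 6.36-fold. Zfp788 had 9.05-fold on 65 IP reads and 3.42-fold on 60, over 7.20 and 16 control reads. In Zfp846 a single wide peak covered most of the coding sequence in both lists, and its summit lay at the stop codon in replicate 1 (4.13-fold) and upstream in replicate 2 (12.6-fold). In Zfp788 the summits of lowest q fell 35 nt apart.

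Just inside the rule stood Zfp987, Zfp651, Zfp593, Zfp114 and Zfp820, whose weaker list had a highest −log10 q of 2.0, 2.46, 2.82, 3.64 and 3.93. Zfp651 rested on 7 and 8 IP reads, at the stop codon in replicate 1 and in coding exon 2 in replicate 2. Its peaks did not overlap, so no site of Zfp651 was called in both lists. Zfp987 rested on 9 IP reads in each list, and Zfp987 and Zfp114 on windows with near-identical copies. Just outside were Zfp970 (replicate 1, 10.1-fold, −log10 q 26.6), Zfp981 (replicate 2, 13.0-fold, 19.9), Zfp974 (replicate 2, 9.06-fold, 13.1), Zfp784 (replicate 1, 6.21-fold, 13.1) and Zfp558 (replicate 2, 8.67-fold, 13.0). Zfp970 rested on 39 IP reads over 3.4 control reads, and Zfp784 on 28 over 4.2. Zfp981 rested on 18 IP reads over 0.39 control reads, Zfp974 on 18 over 1.0 and Zfp558 on 19 over 1.2. The peak of Zfp784 also lies in the 3′ UTR of Zfp865. The values inside and outside the rule overlap, since a peak of high −log10 q in 1 list does not meet it.

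Summits were placed on the spliced transcript with the longest coding sequence, which took 543 of 551 and 538 of 549. Coding sequence more than 200 nt from the start and stop codons held 58.4% of member summits in replicate 1 and 56.3% in replicate 2 (mean 57.3% ± 1.46, SD, n = 2). In the other methylated genes it held 33.3% and 32.9%. It made up a like share of the transcript bases in both sets, 39.2% and 40.5%. The window of 200 nt around the stop codon held 18% and 18.4% of member summits, beside 30.7% and 30.1% in the other genes and 9.84% of the members' bases. The start codon window held 7.0% and 7.06%, beside 14.1% and 14.7%. The 3′ UTR held 14.5% and 16.2%, beside 18% and 18.3%, and the 5′ UTR 2.03% and 2.04%. Zbtb genes placed 51.9% and 50% of their summits in coding sequence, which made up 30.8% of their transcript bases. By gene, 191 members had a coding summit in both lists and 78 a stop codon summit in both.

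**Figure D4:**
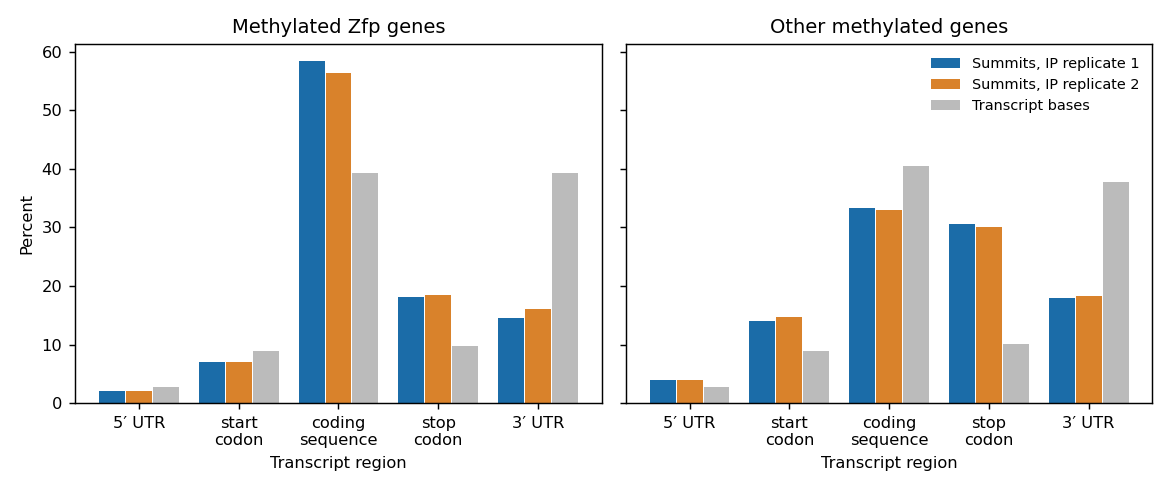
Percent of summits (y axis) by transcript region (x axis) in IP replicates 1 and 2, and percent of transcript bases in the same regions, for the 267 Zfp genes (left) and the other methylated genes (right). Coding sequence held 58.4% and 56.3% of Zfp summits and 33.3% and 32.9% of the others, for 39.2% and 40.5% of bases.

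The last exon held 434 of 543 summits in replicate 1 (79.9%) and 432 of 538 in replicate 2 (80.3%), beside 61.1% and 60.8% in the other genes. It also made up 76.6% of the members' transcript bases, beside 52.8% in the other genes, so the surplus over bases was smaller in the members. A last exon summit was present in both lists in 254 of 267 members. Within last exons that follow a splice junction, the first 100 nt held 3.02% and 2.80% of summits for 3.25% of the bases. The stretch from 100 to 400 nt held 120 of 431 summits in replicate 1 and 112 of 429 in replicate 2. In it, 200 to 400 nt alone took 18.6% and 17.2% for 6.41% of the bases. Beyond 1600 nt were 23.4% and 23.8% of summits for 50.8% of the bases.

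Of all coding summits, 217 of 396 in replicate 1 (54.8%) and 214 of 381 in replicate 2 (56.2%) lay between the first and the last finger. In the 262 members with a finger these were 55.6% (interval 50.6 to 60.6) and 57.1% (51.9 to 62.1), and the array made up 58.1% of their coding bases. Summits were thus about as frequent per base in the array as in the coding sequence around it. The part upstream of the array took 33.3% and 32.5% for 32.7% of the bases, and that downstream 11.0% and 10.4% for 9.26%. An array summit was present in both lists in 141 members. Within the repeat, counted from the codon of the first cysteine, 20.1% and 20.9% of the 169 and 172 array summits within 84 nt of the start of the finger before them fell 36 to 47 nt in and 8.88% and 8.14% fell 72 to 83 nt in, where equal parts would be 14.3%. These 12-nt steps are finer than the median of 23.5 nt between paired summits of the replicates.

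GGAC lay within 50 nt of 235 of 543 member summits in replicate 1 (43.3%, interval 39.1 to 47.6) and 225 of 538 in replicate 2 (41.8%, interval 37.6 to 46.1), beside 57.9% and 57.7% in the other genes. Of all positions on the members' transcripts 25.4% had GGAC as near, and 33.9% on those of the other genes. The ratio of summits to positions was therefore alike, 1.67 and 1.71. Inside the array 34.6% and 30.8% of summits had it for 19.4% of positions, and outside 49.1% in each replicate for 27.8%. DRACH lay within 50 nt of 96.1% and 97.2% of member summits, but also of 88.2% of positions.

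**Figure D5:**
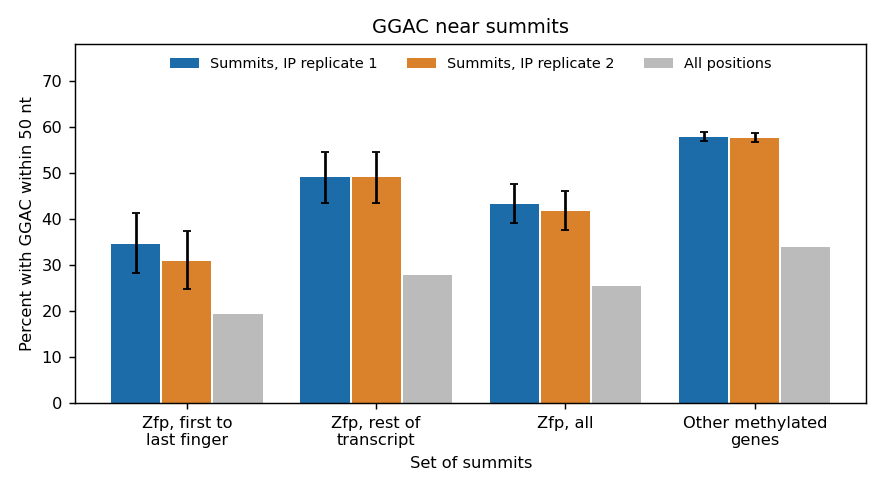
Percent of summits with GGAC within 50 nt (y axis) in IP replicates 1 and 2, with exact 95% intervals, and percent of all positions of the same transcripts, for member summits inside and outside the finger array, all member summits and those of the other methylated genes (x axis). Array summits were lowest, at 34.6% and 30.8%, over 19.4% of positions.

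Among 2162 fingers followed by the next after 84 nt, GGAC occurred in 10.6% and AAACC in 47.2%. AAACC sat mostly at 1 place, the A before its first C at nt 74 after the first base of the finger in 43.3% of fingers, which is the linker. It was within 25 nt of 15.7% and 21.5% of array summits, for 22.3% of array positions. GGACT was within 25 nt of 7.37% and 8.88% for 3.44% of positions, GGACA of 7.83% and 7.48% for 3.63%, and AGACT of 11.5% and 11.2% for 5.21%. Other DRACH words also exceeded their share of positions, among them TGACT (8.29% and 7.01% for 3.43%). GGACC did so less (3.23% and 4.21% for 2.38%), and some words did not, such as TGACA (4.15% and 5.61% for 5.75%). The stretch of Zfp709 printed above was chosen for its motifs and does not stand for the family. It has GGACT and GGACA at either side of the summits and AAACC at its end. Stretches of 168 nt at array peaks of Zfp775 and Zfp54 held neither AAACC nor GGAC followed by A, C or T. Matches were searched on the mRNA strand only and are a description of the letters.

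Members with the KRAB pattern (104 genes) had a median fold enrichment of 5.35 and 5.96, and the other 163 of 4.86 and 4.84. Their peaks rested on fewer reads, a median of 39.5 and 42.0 IP reads beside 57.0 and 54.5, and on less background, 7.20 and 6 beside 12 and 9 control reads. The last exon held 94.3% and 93.8% of KRAB summits, beside 71.9% and 72.6%. GGAC was within 50 nt of 35.6% and 33.8%, beside 47.6% and 46.4%. The start codon window held 2.06% and 3.59%, beside 9.74% and 9.04%. The matching shares of bases and positions were not computed for members with and without the KRAB pattern. The part of gene structure and sequence in these differences was therefore not tested. Members with 10 or more fingers had 65.5% and 68.3% of their coding summits in the array, and those with fewer 36.1% and 34.1%. An array of more fingers tends to span more of the coding sequence. Its share of coding bases was not computed for either group, so a difference per base was not tested.

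Of 28 Zfp genes listed for a known role, 24 were members, beside 267 of all 364 Zfp genes (73.4%). Their peaks of lowest q ranged from 1.94-fold and 1.85-fold (Zfp207, a spindle assembly factor) to the values of Zfp827. Zfp521, a regulator of haematopoietic progenitors, held 4 peaks in each list, all on few reads. The highest values, 9.19-fold on 13 IP reads and 10.7-fold on 17, had summits 817 nt apart and so belong to different places. Their peaks overlap and were counted as a pair above. Zfp384, a fusion partner in acute leukaemia, had 3.05-fold and 3.03-fold at the stop codon. Zfp217, an oncogene product that binds Mettl3, had 7.91-fold and 4.76-fold in the 5′ UTR, and 4.32-fold and 5.11-fold at its strongest coding site. Zfp281, a regulator of pluripotency, had 1 wide peak in each list, with the summit in coding sequence in replicate 1 (5.28-fold) and 1530 nt away at the stop codon in replicate 2 (6.09-fold). Zfp91, a ubiquitin ligase of the noncanonical NF-κB pathway, had 2.59-fold and 2.16-fold on 176 and 167 IP reads. The window of its replicate 2 summit has a near-identical copy elsewhere in the genome. Zfp598, the ubiquitin ligase of collided ribosomes, had 2.34-fold and 2.12-fold at the stop codon. Zfp746, a repressor of PGC-1α, had 6.94-fold and 6.89-fold on 115 and 122 IP reads.

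Several members silence defined targets. Zfp809, which represses murine leukaemia virus, had 5.21-fold and 7.38-fold at the stop codon, and 6.30-fold and 5.13-fold at an exon outside the chosen transcript. Zfp445, a guardian of genomic imprints, had 4.09-fold and 4.13-fold in coding sequence, and Zfp568, a repressor of a placental Igf2 transcript, had 4.88-fold and 4.49-fold, with the summit in the stop codon window in replicate 1 and in the 3′ UTR in replicate 2. Zfp592 and Zfp687 act in 1 complex. In coding sequence, Zfp592 had 4.38-fold and 3.48-fold, and Zfp687 had 4.56-fold and 3.77-fold at a site called in both lists. A further coding peak of Zfp687 was called apart in replicate 2, at 5.72-fold. The other imprint regulator Zfp57 had no summit in either list, and neither had Zfp326 or Zfp410. Zfp335 had one in replicate 1 only.

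A list of 22 genes covered the KRAB corepressor machinery and other chromatin silencing factors, not all of them recruited by KRAB proteins. Of the 22, 13 had a summit in both lists (59.1%), beside the 30.9% of all protein-coding genes. Cbx1 had one in replicate 2 only. Trim28 itself had none, nor had Cbx3, Cbx5, Chd3, Hdac1, Hdac2, Pphln1 and Dnmt1. Setdb1 held 4 and 3 peaks, the strongest at 3.78-fold and 4.16-fold. Among the HUSH and MORC genes, Fam208a reached 5.67-fold and 4.54-fold and Morc2a 5.62-fold and 7.70-fold. Morc3 had only 2.99-fold and 2.68-fold, and Mphosph8 differed between replicates, 1.71-fold and 7.48-fold. The lowest values were those of Chd4, 1.46-fold and 1.41-fold. Uhrf1, which guides maintenance DNA methylation, had 9.56-fold and 5.0-fold.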

How the data were processed

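The authors aligned reads of both biological replicates to GRCm38 (mm10) with HISAT2 and called peaks per replicate with MACS2 2.1.1.20160309 (nomodel), and replicates were not pooled. The deposited fold enrichment is the ratio of IP to local background at the summit. The deposited −log10 p-value and −log10 q-value belong to the same base, the deposited score is 10 times −log10 q without its decimals, and the deposited summit offset gave the position. The calling threshold and the control library are not given in the sources used here, and the input libraries were not analysed here.

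Exons came from the GENCODE M21 basic set, and coordinates are 1-based. Whole IP reads were computed from fold and p-value with the MACS2 formulas, and matched 100% of peaks within 0.0005 in −log10 p. Library totals are unknown. Fingers, linkers and KRAB A boxes were found by pattern in translated transcripts. A finger is C, 2 to 4 residues, C, 12 residues, H, 3 to 5 residues, H. Bases and positions of the same transcripts, counted in full, served as background. Intervals are exact (Clopper-Pearson, 95%) and cover counting error only. Genome copies were searched with blastn 2.17.0. Scripts ran in Python 3.11.15 with scipy 1.17.1, and placement and read recovery were tested on simulated data. Named genes were the 10 strongest, the 6 with most peaks, the 6 most different between replicates, 5 on each side of the rule, and members of a list of 28 with known roles. Members and lists were chosen with earlier results of these data known.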

Additional observations from a re-analysis of the deposited data

How the results depend on the processing

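With both lists required, the number of member genes stayed between 218 (fold enrichment of at least 4) and 271 (any peak overlap with an exon) of 364. It was 259 at −log10 q of at least 5, 260 without summits in exons of another gene and 269 with the comprehensive transcript set. With a single list it rose to 276 to 279. For the other results, genes were not chosen again from a single list, so the values per list restate those above. Coding sequence held 56.3% to 58.4% of summits, the last exon 79.9% to 80.3%, and the array 54.8% to 56.2% of coding summits. GGAC was near 41.8% to 43.3%, and the median fold enrichment was 5.04 to 5.15. The share in coding sequence was 43.7% with windows of 400 nt at the start and stop codons, which take bases from it by construction, 55.7% with the longest transcript and 55.4% with the peak of lowest q per gene. The last exon held 80.4% at −log10 q of at least 5 and 91.1% with the peak of lowest q. Median fold enrichment was 5.29 at −log10 q of at least 5 and 6.16 with the peak of lowest q. GGAC was within 25 nt of 26.9%, within 100 nt of 59.6%, and within 50 nt of 43.6% at −log10 q of at least 5. The looser finger pattern put 57.7% of coding summits in the array. No paired analysis was possible because the results come from no test and only the IP samples had values. Weak peaks on few IP reads, members with near-identical copies and the absence of strand limit what can be said of single genes.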
